A study of Mus musculus with 2 samples.

Results

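Nrf2, the transcription factor encoded by Nfe2l2, its inhibitor Keap1 and 8 genes of antioxidant enzymes or their subunits were followed in mouse bone marrow neutrophils treated with tumor exosomes. These 10 genes were taken by their symbols from the 35522 features of the expression tables, and all 10 were found in both tables. Neutrophils had been sorted from bone marrow as CD11b-positive cells with high Ly-6G and low or no Ly-6C, and both groups were cultured in RPMI-1640 with 10 ng/ml of the myeloid growth factor GM-CSF. The control group was given PBS and the treated group 20 μg/ml exosomes, in each case for 3 days. The exosomes were shed by CT26 murine colon carcinoma cells that had been expanded as spheroids, the sphere-derived cancer stem cells of the study. The donors of immune cells were Balb/C mice, 5 to 8 weeks of age, and it is not given in the sources used here if RNA from several donors was combined. Each group held 1 library, so no value has a replicate error and no difference was tested.

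In resting cells Keap1 binds Nrf2 and hands it to a ubiquitin ligase for degradation. Oxidants and electrophiles modify cysteines of Keap1, Nrf2 then accumulates, and with a small Maf partner it binds antioxidant response elements beside genes for glutathione synthesis, thioredoxin reduction, quinone reduction and heme breakdown. Much of this control acts on the Nrf2 protein, which RNA does not measure. Neutrophils make superoxide with their NADPH oxidase and rely on glutathione, peroxiredoxins and catalase for their own protection.

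The core letters of the antioxidant response element, TGACNNNGC, were searched on both strands of the promoter windows of these genes, which run from 250 bases before to 50 bases after an annotated start (RefSeq, GRCm38.p6). Windows were given for 8 of the 10 genes, and not for Hmox1 and Gclc. The letters were found in 5 of these 8 genes (62.5%), against 14.0% of all 27025 genes with a window. Counted by window, 5 of 10 windows of these genes and 12.4% of all 32851 windows held a match. The 10 genes were picked for their place in the Nrf2 and antioxidant pathway. These shares are therefore not those of like sets, and their difference was not tested. The windows of Gpx1, Nqo1 and Keap1 held none, and bases outside the windows were not searched. The matches are printed because they show which letters stand close to the start of the genes whose levels follow. Each is given with 10 bases on either side, the matching letters are in capitals, and all 5 are written on the minus strand.
Prdx1 (chr4:116685456-116685484): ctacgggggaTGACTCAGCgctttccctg
Gclm (chr3:122245413-122245441): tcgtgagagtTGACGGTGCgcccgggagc
Txnrd1 (chr10:82859104-82859132): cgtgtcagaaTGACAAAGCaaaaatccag
Nfe2l2 (chr2:75704885-75704913): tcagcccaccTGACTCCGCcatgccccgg
Srxn1 (chr2:152105542-152105570): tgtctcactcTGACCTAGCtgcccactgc

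The match of Prdx1 lay at positions -133 to -125 and that of Gclm at -134 to -126 from the annotated start, and neither fell inside a gene of GENCODE M21. The Prdx1 match also holds TGACTCA, the letters of the AP-1 site. In Txnrd1 1 of 3 windows had a match, at -92 to -84 from an internal start, within an intron of longer Txnrd1 transcripts. The Nfe2l2 match, at -240 to -232, lay in an exon of the noncoding gene E030042O20Rik, and that of Srxn1, at 29 to 37 after the start, in its untranslated first exon. Such a match is a description of letters and does not show that a factor was bound.

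Levels are given as RPKM, the reads per kilobase of exon and per 1000000 mapped reads, which can be compared between genes. Summed over the 10 genes, the level was 587 RPKM in PBS-treated and 898 RPKM in exosome-treated neutrophils, a ratio of 1.53. The sum over all features had a ratio of 0.968. That sum includes S100a8, at 32823 RPKM in PBS-treated and 14382 RPKM in exosome-treated cells, and S100a9, at 43059 and 13834 RPKM. Over the 9698 features with at least 0.25 RPKM in both libraries the median log2 fold change, exosome over PBS, was 0.53. The median gene thus also had a higher deposited value in the exosome library. This offset depended on level, with a median of 1 at mean levels of 1 to 5 RPKM and 0.04 from 50 RPKM upward. In PBS-treated cells Hmox1 stood first of the 10 genes and held 32.8% of their sum, followed by Gpx1 with 20.6% and Gclm with 13.7%. In exosome-treated cells Gpx1 stood first with 32.0%, Prdx1 moved from place 6 to place 2 with 19.8%, and Hmox1 held 15.0%. Keap1 was the lowest of the 10 genes in both libraries.

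**Figure D1:**
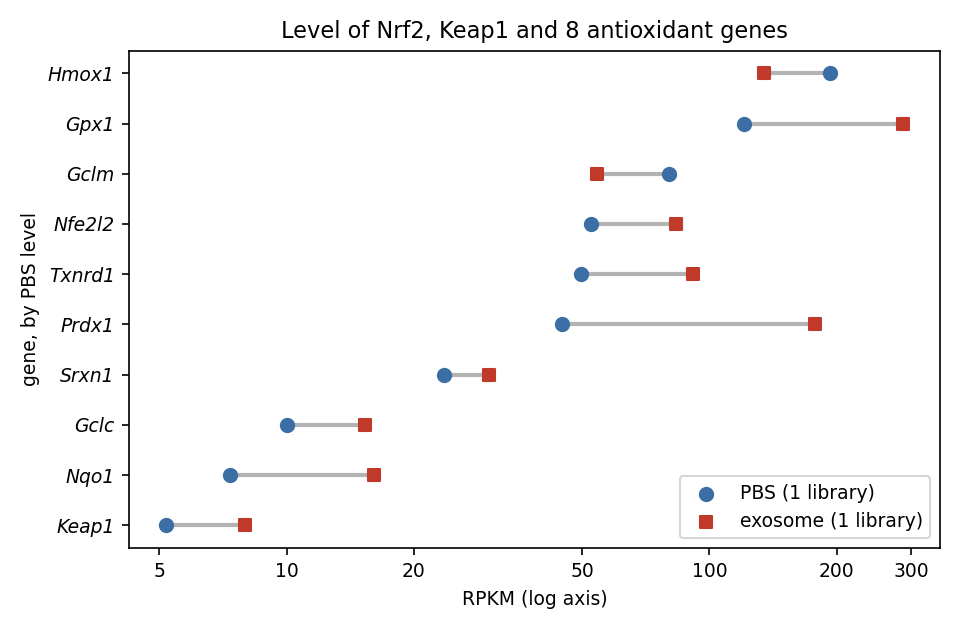
RPKM (horizontal, log axis) of the 10 genes in the PBS library (circles) and the exosome library (squares), sorted by the PBS level, with 1 library per group and no error bars. The square lies to the right of the circle for 8 genes and to the left for Hmox1 and Gclm.

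All 10 genes had an RPKM of at least 0.25 in both libraries, the limit for keeping a gene, as did 9698 features in all. A gene was called up where the exosome level was at least 2 times the PBS level, and down where it was at most 0.5 times that level. By this rule 3 of the 10 genes (Prdx1, Gpx1 and Nqo1) were up, against 31.5% of all genes kept, and 0 were down, against 5.62%. The share of these genes that was up was thus close to the background. Their median log2 fold change was 0.64, and that of all genes kept was 0.53.

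The deposited values are not centred on each other, and the offset depends on the level of a gene. For each gene, the local median is therefore given, which is the median over the 500 genes nearest to it in mean log2 RPKM. Local medians lay between 0.00 and 0.05 for the 6 genes of highest level (Prdx1, Txnrd1, Nfe2l2, Gclm, Hmox1 and Gpx1). They were 0.25 for Srxn1, 0.38 for both Gclc and Nqo1, and 0.67 for Keap1. With the local median removed, 2 of the 10 genes (Prdx1 and Gpx1) were up, against 12.5% of all genes, and 0 were down, against 13.7%. With the median of all genes removed, 1 gene (Prdx1) was up, against 16.8%, and 2 (Hmox1 and Gclm) were down, against 13.2%. Subtracting a trimmed mean of the log ratios called the same genes, 1 up against 16.4% and 2 down against 13.6%.

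**Figure D2:**
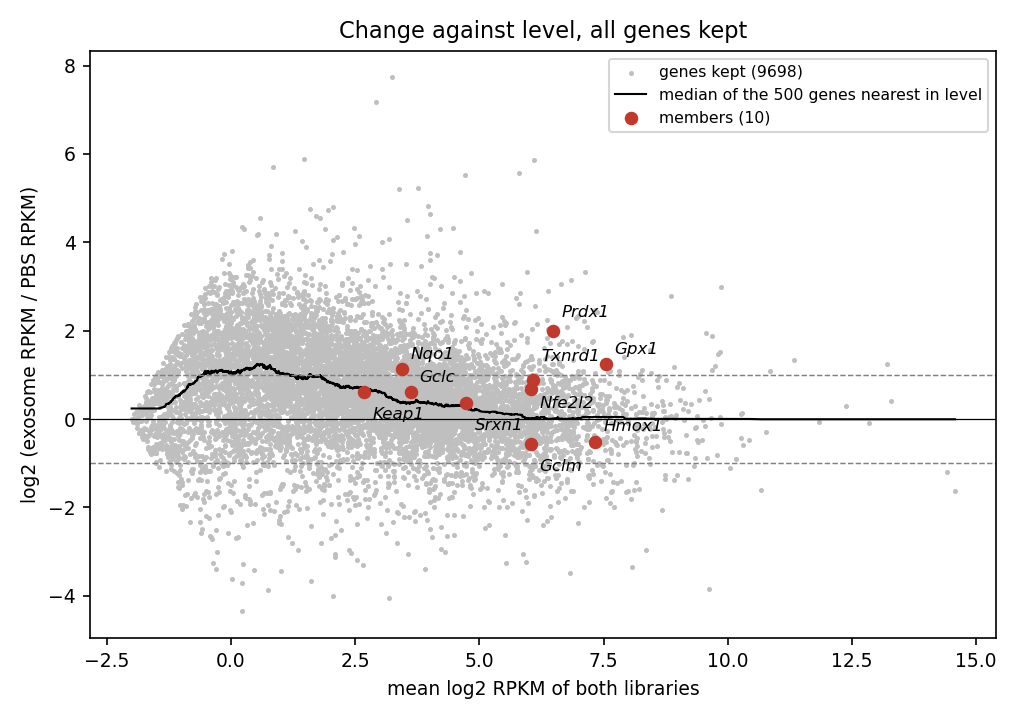
Log2 fold change, exosome over PBS, against the mean log2 RPKM of both libraries for the 9698 genes kept (grey), with the 10 genes in red and the local median over 500 genes as a black line. Dashed lines mark the ratios of 2 and 0.5, and only Prdx1, Gpx1 and Nqo1 of the red points lie above the upper one.

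Of the control genes, Nfe2l2 (chromosome 2, 75675513 to 75704641, minus strand, GRCm38) had 52.34 RPKM in PBS-treated and 83.17 RPKM in exosome-treated neutrophils. The log2 fold change was 0.67 (95% counting interval 0.63 to 0.71), where the interval rests on estimated reads and covers counting error only. Keap1 (chromosome 9, 21229730 to 21239361, minus strand) had 5.19 and 7.96 RPKM, a log2 fold change of 0.62 (counting interval 0.52 to 0.72). This was -0.05 once the local median was removed, so that its sign turned, while that of Nfe2l2 was 0.65. With the median of all genes removed the values were 0.14 for Nfe2l2 and 0.09 for Keap1, and with the trimmed mean removed they were 0.13 and 0.08. An antisense gene, Gm16754, overlaps exons of Keap1 and was listed at 0 in both libraries. The level of Nfe2l2 was 10.1 times that of Keap1 in PBS-treated and 10.4 times in exosome-treated cells. As deposited, the ratio of these transcripts thus differed by 0.05 on the log2 scale between the libraries, and with the local median of each gene removed by 0.70. Neither gene passed the 2-fold limit.

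Of 11 other genes of Nrf2 control, all kept, 2 were up and 0 down, against 31.5% and 5.62% of all genes. Nfe2l1, which encodes a related factor of the same family, rose from 17.14 to 49.91 RPKM (log2 fold change 1.54), and Rbx1, a subunit of the Keap1 ubiquitin ligase, rose from 10.07 to 22.12 RPKM. Cul3, the scaffold of that ligase, had 47.52 and 48.75 RPKM. The small Maf partner genes Mafg, Mafk and Maff had log2 fold changes of -0.30, -0.54 and 0.62, and Bach1, which encodes a repressor at the same elements, had 77.36 and 91.83 RPKM. The highest gene of the list was Sqstm1, which encodes the Keap1-binding autophagy receptor p62, with 162.13 and 219.98 RPKM. As deposited, all genes of this list apart from Nfe2l1 and Rbx1 stayed within the 2-fold limit. Rbx1 had a log2 fold change of 0.77 with the local median removed and 0.61 with the median of all genes removed, below the limit. With the median of all genes removed Mafk and Nfe2 were down, at -1.07 and -1.11.

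The largest change among the 10 genes was that of Prdx1 (chromosome 4, 116685544 to 116700822, plus strand), whose peroxiredoxin reduces hydrogen peroxide in the cytosol. Its level rose from 44.86 to 178.12 RPKM, a ratio of 3.97 and a log2 fold change of 1.99 (counting interval 1.95 to 2.03). The local median at this level was 0.00, and 11.2% of the 500 nearest genes were up. Prdx1 stayed up under every scaling, with log2 fold changes from 1.45 to 2.04.

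Other peroxiredoxins changed less. Of these 5 genes 1 was up and 0 were down, against 31.5% and 5.62% of all genes. The mitochondrial Prdx3 rose 2.54-fold, from 5.28 to 13.41 RPKM. Its log2 fold change of 1.34 was 0.75 with the local median and 0.82 with the median of all genes removed, below the limit. Prdx5, the highest of the family, had 455.54 and 614.24 RPKM, so that its level was 10.2 times that of Prdx1 in PBS-treated and 3.45 times in exosome-treated cells. Prdx2, Prdx4 and Prdx6 had log2 fold changes of 0.90, 0.24 and 0.73. Summed over the family, peroxiredoxin RNA had 532 RPKM in PBS-treated and 850 RPKM in exosome-treated neutrophils.

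Srxn1 (chromosome 2, 152105516 to 152111376, plus strand) encodes sulfiredoxin, which restores over-oxidised peroxiredoxins. It had 23.54 and 30.09 RPKM, a log2 fold change of 0.35 (counting interval 0.30 to 0.41) that became -0.17 with the median of all genes removed and -0.19 with the trimmed mean removed. The level of Prdx1 was 1.91 times that of Srxn1 in PBS-treated and 5.92 times in exosome-treated cells. The RNA levels of the enzyme and of its repair factor therefore did not keep the same ratio in these libraries.

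Txnrd1 (chromosome 10, 82833951 to 82897712, plus strand), the cytosolic thioredoxin reductase, had 49.65 RPKM in PBS-treated and 91.59 RPKM in exosome-treated neutrophils. Its log2 fold change of 0.88 (counting interval 0.85 to 0.91) was below the 2-fold limit. Its substrate thioredoxin, Txn1, had 395.21 and 349.62 RPKM, and the ratio of Txn1 to Txnrd1 was 7.96 in PBS-treated and 3.82 in exosome-treated cells.

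Of 11 other thioredoxin and glutaredoxin genes kept, 5 were up and 1 was down, against 31.5% and 5.62% of all genes. Removing the local median left 3 up and 2 down, against 12.5% and 13.7% of all genes. Removing the median of all genes left 4 up and 2 down, against 16.8% and 13.2%. The mitochondrial counterparts Txn2 and Txnrd2 rose from 3.98 to 20.72 RPKM and from 0.37 to 2.70 RPKM. Glrx3, a glutaredoxin of iron-sulfur cluster traffic, rose from 1.94 to 10.21 RPKM, and Glrx5 and Txnl1 were also up. As deposited, the one gene down was Glrx, the cytosolic glutaredoxin, at 248.85 and 122.94 RPKM. Its counting interval included the 2-fold limit. The local medians at the levels of the 5 genes up ran from 0.49 for Txnl1 to 1.07 for Txnrd2. Once these were removed, Glrx5 and Txnl1 had log2 fold changes of 0.81 and 0.66, below the limit.

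Gpx1 (chromosome 9, 108338903 to 108340343, plus strand), the selenium-dependent glutathione peroxidase of most cells, rose from 120.86 to 286.87 RPKM. This was a ratio of 2.37 and a log2 fold change of 1.25 (counting interval 1.21 to 1.28). With the median of all genes removed the log2 fold change was 0.72, below the 2-fold limit, and with the local median removed it was 1.20. Gpx4, which reduces lipid peroxides in membranes, had 129.35 and 98.14 RPKM, so that the level of Gpx1 was 0.934 times that of Gpx4 in PBS-treated and 2.92 times in exosome-treated cells. Gpx3, the secreted form, rose from 0.49 to 3.77 RPKM. Of the other 5 peroxidase genes none was kept, and 4 were listed at 0 in both libraries.

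Glutathione itself is made in a first step by glutamate-cysteine ligase, whose catalytic subunit is encoded by Gclc and whose modifier subunit is encoded by Gclm. As deposited, these subunits had log2 fold changes of opposite sign, neither past the 2-fold limit. Gclc (chromosome 9, 77754535 to 77794485, plus strand) had 10.02 RPKM in PBS-treated and 15.30 RPKM in exosome-treated neutrophils, a log2 fold change of 0.61 (counting interval 0.54 to 0.68). Gclm (chromosome 3, 122245557 to 122270732, plus strand) had 80.36 and 54.10 RPKM, a log2 fold change of -0.57 (counting interval -0.60 to -0.55). The level of Gclm was therefore 8.02 times that of Gclc in PBS-treated and 3.54 times in exosome-treated cells, a log2 change of -1.18, which was -0.83 with the local median of each gene removed. With the median of all genes and with the trimmed mean removed, Gclm had -1.10 and -1.11, past the 2-fold limit, and Gclc had 0.08 and 0.07. Annotated transcripts on both strands overlap exons of Gclm, among them the pseudogene Gm6061, which was listed at 0 in both libraries.

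Of 8 other genes of glutathione synthesis and supply kept, 1 was up and 1 down, against 31.5% and 5.62% of all genes. Removing the local median left 0 up and 3 down, against 12.5% and 13.7%. Removing the median of all genes left 1 up and 3 down, against 16.8% and 13.2%. Gss, the second enzyme of the synthesis, rose from 1.19 to 3.45 RPKM, and Chac1, which breaks glutathione down, fell from 0.96 to 0.29 RPKM. The log2 fold change of Gss was 1.54 as deposited and 0.51 with the local median removed, below the limit. Slc7a11, the cystine transporter, had 136.22 and 77.12 RPKM, a log2 fold change of -0.82. Glutathione reductase, Gsr, was the highest gene of the list in exosome-treated cells, at 87.96 and 175.23 RPKM, a ratio of 1.99 just under the limit.

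Hmox1 (chromosome 8, 75093621 to 75100589, plus strand) encodes heme oxygenase 1, which splits heme into biliverdin, iron and carbon monoxide. It was the highest of the 10 genes in PBS-treated neutrophils with 192.62 RPKM and had 134.52 RPKM in exosome-treated cells. The log2 fold change was -0.52 (counting interval -0.55 to -0.49), and it was -0.57 with the local median removed and -1.04 with the median of all genes removed. The constitutive Hmox2 had 37.56 and 60.27 RPKM, which brought the ratio of Hmox1 to Hmox2 from 5.13 in PBS-treated to 2.23 in exosome-treated cells.

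The biliverdin reductases, which act after heme oxygenase, were both up. Blvra rose 11.1-fold, from 2.10 to 23.21 RPKM, and Blvrb rose 4.24-fold, from 18.78 to 79.62 RPKM. The iron exporter gene Slc40a1 fell from 149.34 to 62.07 RPKM. The ferritin genes Fth1 and Ftl1 were the highest of the list, with 8693 and 7539 RPKM in PBS-treated and 11567 and 7102 RPKM in exosome-treated cells. Ferritin genes have many processed copies, and how reads shared with such copies were assigned is not given in the sources used here.

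Nqo1 (chromosome 8, 107388225 to 107403206, minus strand) encodes a quinone reductase often read as a marker of Nrf2 activity. It rose from 7.35 to 16.10 RPKM, a ratio of 2.19 and a log2 fold change of 1.13 (counting interval 1.01 to 1.25). The local median at its level was 0.38, and 22.4% of the 500 nearest genes were up. The log2 fold change was 0.76 with the local median and 0.60 with the median of all genes removed, so that the 2-fold call rested on the scaling.

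**Figure D3:**
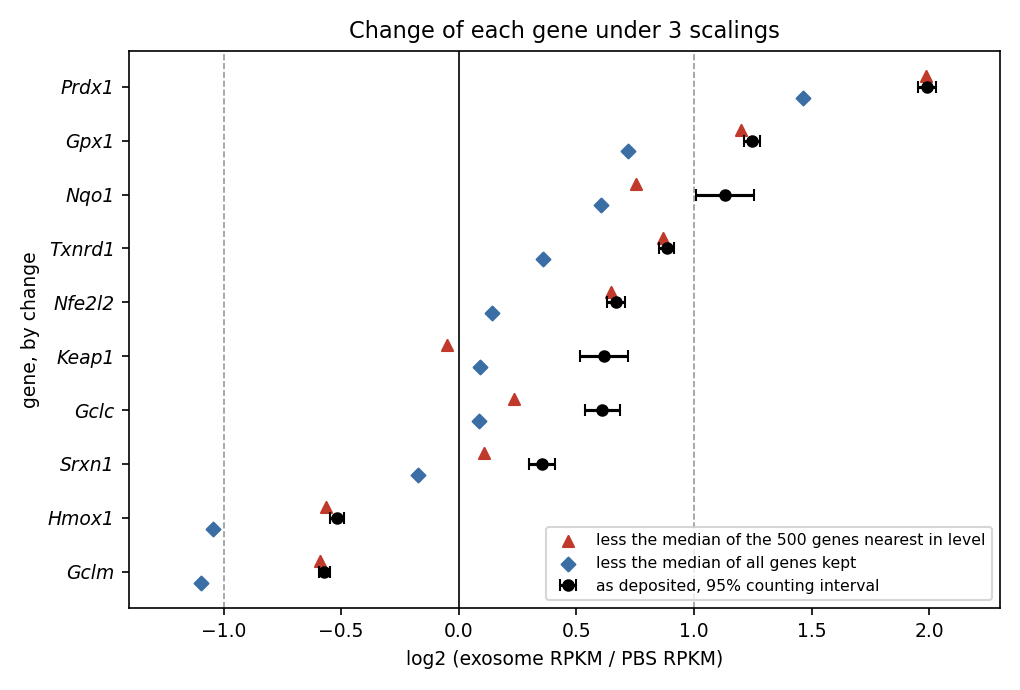
Log2 fold change, exosome over PBS, of the 10 genes as deposited (black, with 95% counting intervals), less the local median of 500 genes (triangles) and less the median of all genes kept (diamonds), with dashed lines at ratios of 2 and 0.5. Prdx1 lies beyond the upper dashed line under all 3 scalings, and Hmox1 and Gclm lie below 0 under all 3.

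Other antioxidant genes were described by lists of the same pathway. Of 107 listed genes besides the 10, 105 were in the tables and 77 were kept. Of these 77, 25 (32.5%) were up and 7 (9.09%) were down, near the 31.5% and 5.62% of all genes, and their median log2 fold change was 0.53. With the local median removed 13 were up (16.9%, against 12.5% of all genes) and 11 down (14.3%, against 13.7%). With the median of all genes removed 17 were up (22.1%, against 16.8%) and 15 down (19.5%, against 13.2%).

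The list of superoxide dismutases and catalase had the largest ratio of summed levels among the 11 lists, 3.42, from 102 to 348 RPKM. Of its 4 genes kept 3 were up and 0 down, against 31.5% and 5.62% of all genes. With the local median removed 2 were up, against 12.5%, and with the median of all genes removed 2 were up, against 16.8%. Sod2, the mitochondrial dismutase, rose 7.51-fold, from 30.38 to 228.13 RPKM, at a level where the local median was 0.00. Cat, which encodes catalase, rose from 8.14 to 27.85 RPKM, and Sod1, the cytosolic dismutase, had 61.84 and 88.16 RPKM. The other gene up was Ccs, at 1.46 and 3.73 RPKM. Its log2 fold change of 1.35 was 0.35 with the local median and 0.83 with the median of all genes removed, below the limit. The level of Sod2 was 0.491 times that of Sod1 in PBS-treated and 2.59 times in exosome-treated cells.

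Of 9 glutathione transferase genes kept, 4 were up and 2 down, against 31.5% and 5.62% of all genes. Removing the local median left 3 up and 2 down, against 12.5% and 13.7%. Removing the median of all genes left 4 up and 2 down, against 16.8% and 13.2%. The summed level was 297 RPKM in PBS-treated and 182 RPKM in exosome-treated cells. Gstm4 rose from 0.71 to 16.70 RPKM, Gstm1 from 5.90 to 39.04 RPKM and Gstk1 from 0.34 to 1.55 RPKM. The microsomal Mgst1, the highest of the list, fell from 260.40 to 94.60 RPKM and Mgst2 from 12.22 to 1.48 RPKM, while Mgst3 had 0.12 and 1.29 RPKM and was not kept. Genes of the Gstm cluster resemble each other in sequence, which leaves the split of reads between them uncertain.

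Among genes of carbonyl reduction, conjugation and export, 5 of 11 were up and 1 was down, against 31.5% and 5.62% of all genes. With the local median removed 1 was up, against 12.5%, and with the median of all genes removed 2 were up, against 16.8%. Cbr3, a carbonyl reductase, rose 19.7-fold, from 0.84 to 16.55 RPKM, and Akr1a1, the highest of the list, had 95.77 and 146.82 RPKM. Of 7 NADPH-supplying genes kept, 1 was up and 0 were down, against 31.5% and 5.62% of all genes. The gene up was Idh2, an isocitrate dehydrogenase of mitochondria, at 1.03 and 2.72 RPKM, and it was within the 2-fold limit under the 3 centred scalings and with a pseudocount of 1. The highest, the pentose phosphate gene Taldo1, had 882.20 and 476.16 RPKM, and G6pdx, the first enzyme of that pathway, had 38.52 and 76.95 RPKM, just under the limit. Of 3 methionine sulfoxide reductase genes kept, 0 were up and 1 was down, against 31.5% and 5.62% of all genes. The gene down was Msra, at 71.80 and 23.74 RPKM. Sepx1, the highest of the list, had 1577 and 836 RPKM and was not called. With the local median removed 2 of the 3 were down, against 13.7%, and with the median of all genes removed 3 were, against 13.2%.

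**Figure D4:**
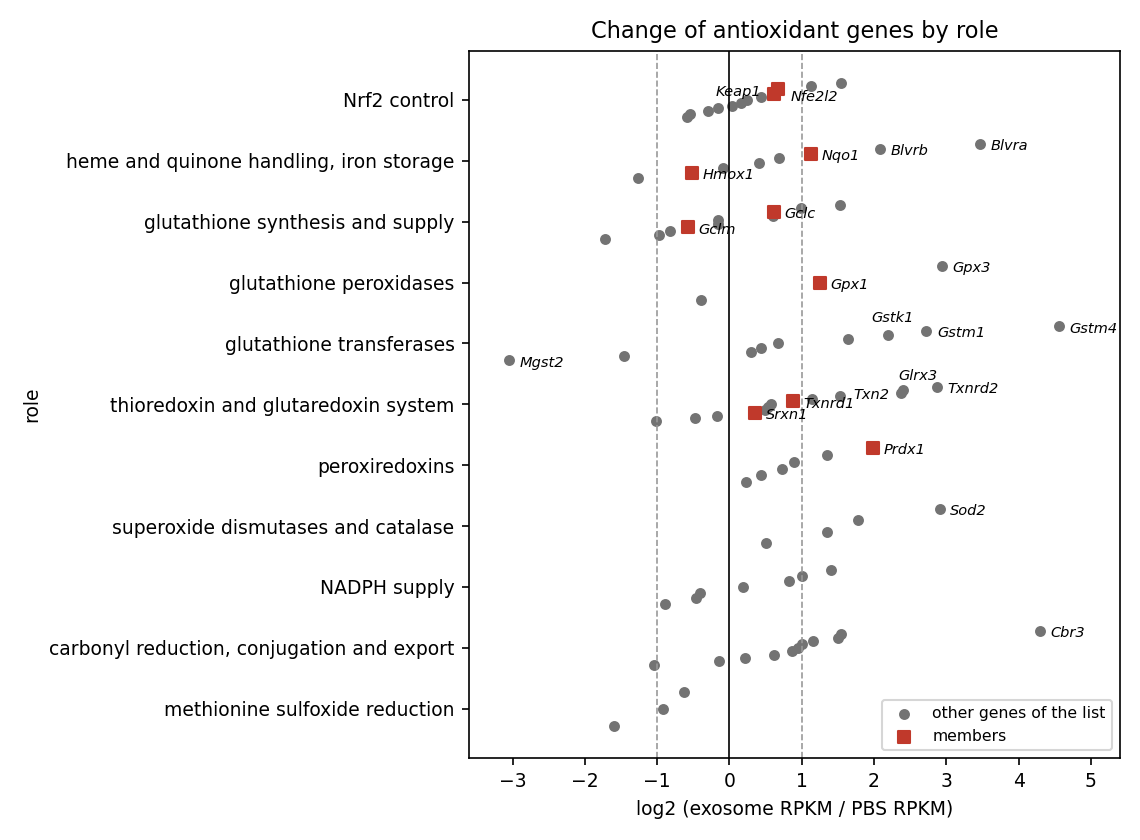
Log2 fold change, exosome over PBS, of the genes kept in 11 lists of antioxidant roles, with the 10 genes as red squares and other genes as grey points; points of a list are spread vertically only for visibility and dashed lines mark ratios of 2 and 0.5. Named grey points changed at least 4-fold, with Mgst2 the only one on the lower side.

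The labelled cell type was checked against markers. The 14 neutrophil marker genes were all kept in both libraries, with a summed level of 84910 RPKM in PBS-treated and 30867 RPKM in exosome-treated cells. S100a8 and S100a9 made up most of both sums, at 32823 and 43059 RPKM in PBS-treated and 14382 and 13834 RPKM in exosome-treated cells. Of the 14 genes 10 were down, against 5.62% of all genes, and 0 were up, against 31.5%. The other 4 were Mmp9, at a log2 fold change of -0.48, and Itgam, Mpo and Elane, at 0.33, 0.62 and 0.33. Of 17 macrophage and monocyte markers in the tables, 9 were kept. Of these, 6 were up and 1 was down, against 31.5% and 5.62% of all genes. The summed level of the 17 markers was 351 and 525 RPKM, of which Ly6c2 made up 184 and 37.1 RPKM. Csf1r, the receptor for macrophage colony-stimulating factor, had 58.10 and 152.64 RPKM and Emr1, which encodes F4/80, had 20.91 and 151.51 RPKM, whereas Timd4 was listed at 0 in both libraries and Cd163 was at most 0.01 RPKM. The part of these shifts in the changes of the 10 genes was not tested. In such bulk RNA, fewer cells of a type and less RNA per cell cannot be told apart.

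The genes nearest to Nfe2l2 in the plane of both log2 levels were Cox17, Lcp2 and Pilrb1, at distances of 0.03, 0.03 and 0.04. Those nearest to Hmox1 were Fes, Trem1 and Ccnl2, at distances of 0.05, 0.07 and 0.07. These distances rest on 2 libraries.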

How the data were processed

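RNA of 1 PBS-treated and 1 exosome-treated neutrophil culture was sequenced as mRNA libraries. The authors trimmed reads by base quality, used CLC Genomics Workbench and deposited 1 RPKM value per feature. The submitters' processing notes name the build mm10; the annotation, shared reads and scaling between samples are not given in the sources used here. Depth was estimated from values below 0.01 RPKM that stand for single reads, with the longest GENCODE M21 transcript as length: about 66.0 M (mega) mapped reads in the PBS library and 79.1 M in the exosome library. Counting intervals are exact Clopper-Pearson intervals of estimated reads.

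Genes needed 0.25 RPKM in both libraries, fold changes used no pseudocount, and a ratio of 2 was the limit. The 10 genes and all lists were chosen with earlier results of these data known. Named were the 10 genes, each list's highest gene, list genes at 1 RPKM or more in either library that changed at least 4-fold, and the 3 genes nearest to Nfe2l2 and to Hmox1; other genes named, such as Cul3, Mafg and Slc7a11, were added after their values were seen. Alternatives were median centring, subtraction of a trimmed mean of log ratios (trim of 30% for ratios and 5% for mean levels, each end), subtraction of the local median of 500 genes, TPM, a floor of 1 RPKM in both, a floor of 0.25 RPKM in either plus 0.25 as pseudocount, 1 as pseudocount, and 4 as the limit for ratios. Scripts (Python 3.11.15, pandas 2.3.3, scipy 1.17.1) were tested on simulated data.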

Additional observations from a re-analysis of the deposited data

How the results depend on the processing

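With 1 library per group no replicate could be left out, and no setting measures the spread between cultures. No paired analysis was possible because each group held 1 library and the labels give no replicate numbers. Median centring took 0.53 from every log2 fold change. It left 1 of the 10 genes up and 2 down, against 16.8% and 13.2% of all genes, and the median of the 10 at 0.12. The trimmed mean gave 1 up and 2 down, against 16.4% and 13.6% of all genes, and a median of 0.10. It called 15 of the other antioxidant genes up (19.5%, against 16.4% of all genes). In the values as deposited 25 were up (32.5%, against 31.5%). Removal of the local median gave a median of 0.44 and 13 of the other genes up (16.9%, against 12.5% of all genes). A ratio of 4 left 0 of the 10 genes and 11 of the other genes up, and Prdx1 missed it at 3.97. The share of all genes at that ratio was not counted, so these counts stand without a background. The median of the 10 genes was 0.69 after rescaling to TPM, 0.63 with the floor of 0.25 RPKM in either library plus a pseudocount of 0.25, and 0.61 with a pseudocount of 1. Signs turned for Keap1 with the local median removed (-0.051) and for Srxn1 with median centring (-0.17) and the trimmed mean (-0.19). For the other 8 genes the sign was the same under all 7 alternatives. Depth did not limit the 10 genes, since the fewest estimated reads were 753, for Nqo1 in PBS.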

Other observations

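Markers of other blood cells were present at unequal levels. All 5 B cell markers were kept and had a summed level of 108 RPKM in PBS-treated and 66.9 RPKM in exosome-treated neutrophils, with Cd79a at 38.25 and 24.44 RPKM. Of 7 T and NK cell markers only Cd3d was kept, at 56.44 and 7.02 RPKM, and Cd3e was at 0.06 and 0.04 RPKM. Summed levels of PBS-treated and exosome-treated cells were 10.5 and 5.20 RPKM for 4 eosinophil markers, 2.65 and 1 RPKM for 6 dendritic cell markers, 2.02 and 2.18 RPKM for 5 basophil and mast cell markers, and 2.40 and 0.455 RPKM for 6 erythroid markers. The 6 epithelial markers, which carcinoma cells could carry, summed to 0.59 and 0.205 RPKM, and none was kept. The part of any of these cells in the levels of the antioxidant genes was not tested.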
